A study of Mus musculus with 24 samples.

Results

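Collagen chain genes were taken as every symbol in the deposited gene count table made of Col, a number, the letter a and a number. The rule found 44 genes of the 36144 in the table, and all 44 matched a gene of the mouse annotation GENCODE M21. They were grouped by the kind of collagen they encode: 11 fibrillar chains, the type IV chains of basement membranes, the type VI chains of beaded filaments, and smaller classes of network, transmembrane, fibril-associated and other collagens. The study measured polyadenylated RNA by sequencing in brown adipose tissue of the interscapular depot, a fat that burns fuel to make heat. Per the series title, the sympathetic neurons that project to this fat were activated chemogenetically, which means through a designer receptor and its drug. The tissue was collected 30 min after DCZ (deschloroclozapine, a drug that activates designer receptors) or saline. The 4 groups were Th-Cre mice given DCZ, Th-Cre mice given saline, WT mice given DCZ and WT mice given saline, with 6 mice each, 3 female and 3 male. Th-Cre mice carried the strain label B6.129X1- Tht1(cre)Te/Kieg, in which Cre is driven by the regulatory sequence of tyrosine hydroxylase, the enzyme that limits catecholamine synthesis. WT mice were C57Bl/6J, and mice of all groups were 6 to 8 months old. The sources used here do not name the designer receptor, its delivery or whether WT mice received it. Each library came from a separate mouse, and no mouse number occurred in both genotypes, so genotype, strain background and any difference between the colonies cannot be told apart. Library numbers in the labels ran through all WT mice before all Th-Cre mice, so any effect of that order cannot be told from genotype either.

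Collagens are secreted proteins whose chains, rich in glycine and proline, wind into triple helices and make up much of the extracellular matrix. Fibrillar collagens (types I, III, V, XI and others) form the banded fibrils that give tissue its tensile strength, type IV chains form the sheet-like network of basement membranes, and type VI chains form fine beaded filaments close to cells. In fat, each adipocyte is wrapped in a basement membrane, capillaries carry another, and fibroblasts and preadipocytes make most of the fibrillar chains.

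The promoters shown here are those of the 6 chains whose RNA was lower in Th-Cre than in WT fat, since these carry the genotype result below. RefSeq gave a promoter for 35 of the 44 genes (not for Col12a1, Col14a1, Col1a1, Col22a1, Col26a1, Col2a1, Col4a3, Col5a2 and Col9a3), and each printed window covers up to 250 bases before RefSeq's start of transcription, 5′ to 3′ on the gene's own strand, with that of Col4a5 ended before its first annotated exon. Capitals mark the GC box, whose letters are GGGCGG. They also mark the CCAAT box, named by its letters. The last motif marked is the TATA box, spelled TATAAA. All were searched on both strands, and no marked motifs overlap. Col8a1 lies at chr16:57754738-57754987 on the minus strand, Col13a1 at chr10:61979109-61979358 on the minus strand, and Col7a1 at chr9:108953336-108953585 on the plus strand. Col28a1 lies at chr6:8192618-8192867 on the minus strand, Col11a2 at chr17:34038888-34039137 on the plus strand, and Col4a5 at chrX:141475169-141475384 on the plus strand (all GRCm38.p6, RefSeq). The windows differ in the motifs they hold.
Col8a1: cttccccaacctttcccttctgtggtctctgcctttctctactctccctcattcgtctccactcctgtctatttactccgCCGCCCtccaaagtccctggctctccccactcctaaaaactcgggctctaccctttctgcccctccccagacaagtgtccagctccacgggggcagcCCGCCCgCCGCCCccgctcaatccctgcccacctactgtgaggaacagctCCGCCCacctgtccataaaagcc
Col13a1: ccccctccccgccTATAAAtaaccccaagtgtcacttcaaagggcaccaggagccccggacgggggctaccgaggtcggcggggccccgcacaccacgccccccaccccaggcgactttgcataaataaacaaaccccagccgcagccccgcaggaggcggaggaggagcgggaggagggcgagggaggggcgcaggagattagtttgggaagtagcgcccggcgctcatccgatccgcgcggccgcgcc
Col7a1: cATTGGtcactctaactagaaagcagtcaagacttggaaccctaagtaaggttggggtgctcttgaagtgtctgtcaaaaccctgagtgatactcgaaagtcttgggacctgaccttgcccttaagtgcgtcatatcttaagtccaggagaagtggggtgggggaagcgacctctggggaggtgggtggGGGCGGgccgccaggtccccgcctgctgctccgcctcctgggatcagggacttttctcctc
Col28a1: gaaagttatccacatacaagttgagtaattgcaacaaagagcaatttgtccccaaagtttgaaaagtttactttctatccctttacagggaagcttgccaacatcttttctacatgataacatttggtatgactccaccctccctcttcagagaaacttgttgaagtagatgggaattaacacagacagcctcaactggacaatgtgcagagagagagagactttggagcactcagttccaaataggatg
Col11a2: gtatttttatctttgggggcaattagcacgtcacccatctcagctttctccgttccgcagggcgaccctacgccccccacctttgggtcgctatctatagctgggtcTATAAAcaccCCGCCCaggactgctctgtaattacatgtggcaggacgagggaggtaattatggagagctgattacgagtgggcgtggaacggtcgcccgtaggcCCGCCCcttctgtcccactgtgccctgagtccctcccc
Col4a5: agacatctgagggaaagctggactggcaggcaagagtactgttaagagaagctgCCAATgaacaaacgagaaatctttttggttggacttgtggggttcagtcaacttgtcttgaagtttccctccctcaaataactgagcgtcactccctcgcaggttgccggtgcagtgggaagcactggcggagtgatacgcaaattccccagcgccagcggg
Col8a1 held 4 GC boxes, Col11a2 held 2 GC boxes and a TATA box, and Col7a1 held a GC box and a CCAAT box. Col13a1 held a TATA box alone, Col4a5 a CCAAT box alone, and Col28a1 none of these. Among all 32851 promoters searched in the same window, 32.7% held a GC box, 33.8% a CCAAT box and 12.4% a TATA box. The 35 collagen genes had 38 promoters, of which 22 (57.9%) held a GC box, 13 (34.2%) a CCAAT box and 5 (13.2%) a TATA box. Base composition also differed, with 68.8% G or C in the Col13a1 window and 40.4% in the Col28a1 window. These matches describe the letters of the windows and carry no measurement of binding.

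Library totals ran from 12698385 to 22865592 estimated counts in Th-Cre DCZ, 11933532 to 18740928 in Th-Cre saline, 16609895 to 20215049 in WT DCZ and 13158457 to 18791082 in WT saline. Mitochondrially encoded genes took 31.4% to 42.3% of the counts. Brown adipocyte identity was plain in every library, with Ucp1, the uncoupling protein of brown fat, between 1752 and 6533 CPM, which are counts scaled to a common library size. Skeletal muscle transcripts stood out in 6 libraries, where 13 muscle markers summed to between 81.3 and 1527 CPM, against 3.30 to 45.6 CPM in the other 18. Of these 6 libraries, 2 were Th-Cre DCZ, 3 Th-Cre saline, 0 WT DCZ and 1 WT saline, and 4 were from females. Marker genes of cartilage, bone and tendon summed to 0.340 to 1.49 CPM. Of these Matn1 and Ibsp were at 0 in all 24 libraries, while Sox9 was found in every library at 0.0680 to 0.879 CPM. Skin markers summed to 1.04 to 7.26 CPM. The keratin Krt5 was at 0 in 17 libraries, while the keratin Krt10 was found in every library, at 0.670 to 2.37 CPM with a median of 1.38. CPM values below are scaled by edgeR's trimmed mean of M-values (TMM), and mean ± SD values are over the n named beside them.

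Brown fat expressed a small set of collagen chains at high levels. Collagen chains together took 0.107% of the counts in Th-Cre DCZ, 0.107% in Th-Cre saline, 0.112% in WT DCZ and 0.104% in WT saline. Col4a1 and Col4a2, the chains of the common basement membrane network, made up 24.4% and 20.0% of all collagen counts. Col3a1, the fibrillar chain of stretchable tissue, added 12.1%, so that 3 genes held 56.4% of collagen counts. The first 11 genes held 90.6%, among them Col27a1 at 8.40%, Col1a2 at 4.93%, Col6a2 at 4.22%, Col6a1 at 4.21%, Col6a3 at 3.65%, Col1a1 at 3.23%, Col15a1 at 2.77% and Col5a3 at 2.74%.

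Levels can be compared between genes only per length, and the order below uses CPM per kilobase of exonic sequence over all 24 libraries. Col4a1 led at 35.0 ± 5.72 and Col4a2 followed at 32.4 ± 4.78 CPM per kb (SD, n = 24), with Col4a1 the higher of the pair in 23 of 24 libraries. These genes lie head to head on chromosome 8 of the mouse and share 0.3% and 1.0% of their exonic bases. Col3a1 came next at 13.3 ± 5.90 CPM per kb, and Col4a2 was above it in all 24 libraries. Col6a1, a type VI chain, reached 10.3 ± 2.05 CPM per kb, and Col3a1 was above it in 18 libraries. Col27a1, a fibrillar chain best known from cartilage, reached 6.89 ± 1.60 CPM per kb. Col6a2 at 5.46 ± 1.13 and Col1a1 at 5.32 ± 2.05 CPM per kb did not separate, with Col6a2 the higher in 17 of 24 libraries and a spread of Col1a1 larger than the gap. Col5a3 at 4.32 and Col1a2 at 4.26 CPM per kb also did not separate, with Col5a3 the higher in 12 of 24. Col15a1, which links basement membranes to fibrils, lay among them at 4.70 CPM per kb. The order of close neighbours depended on the length used. With the longest transcript, Col3a1 was at 23.4, Col27a1 at 11.8, Col1a2 at 9.91, Col6a2 at 9.25, Col1a1 at 5.89 and Col5a3 at 4.81 CPM per kb, so that Col1a2 lay above Col5a3 and Col6a2 above Col1a1, and Col4a1 and Col4a2 still led at 39.5 and 33.3 CPM per kb.

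Below these, levels fell off over a wide range. Col6a3 averaged 3.28, Col5a1 1.999, Col18a1 (the precursor of endostatin) 1.66 and Col5a2 1.62 CPM per kb. Col11a2, Col20a1, Col12a1, Col23a1, Col7a1, Col8a1, Col13a1, Col16a1, Col28a1, Col14a1 and Col4a5 ran between 1.29 and 0.228 CPM per kb. The type IV chains of kidney and lung basement membranes, Col4a3 and Col4a4, were at 0.0985 and 0.138 CPM per kb. A filter on low counts left 29 of the 44 genes for testing. The 15 genes that did not pass were Col10a1, Col11a1, Col17a1, Col19a1, Col22a1, Col24a1, Col25a1, Col2a1, Col4a6, Col6a4, Col6a5, Col8a2, Col9a1, Col9a2 and Col9a3. They averaged 0.0142 to 0.361 CPM, with 6 to 145 counts each over all 24 libraries, and the 29 that passed averaged 0.583 to 261 CPM. The filter used the number of libraries in the smallest group and no difference between groups.

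**Figure D1:**
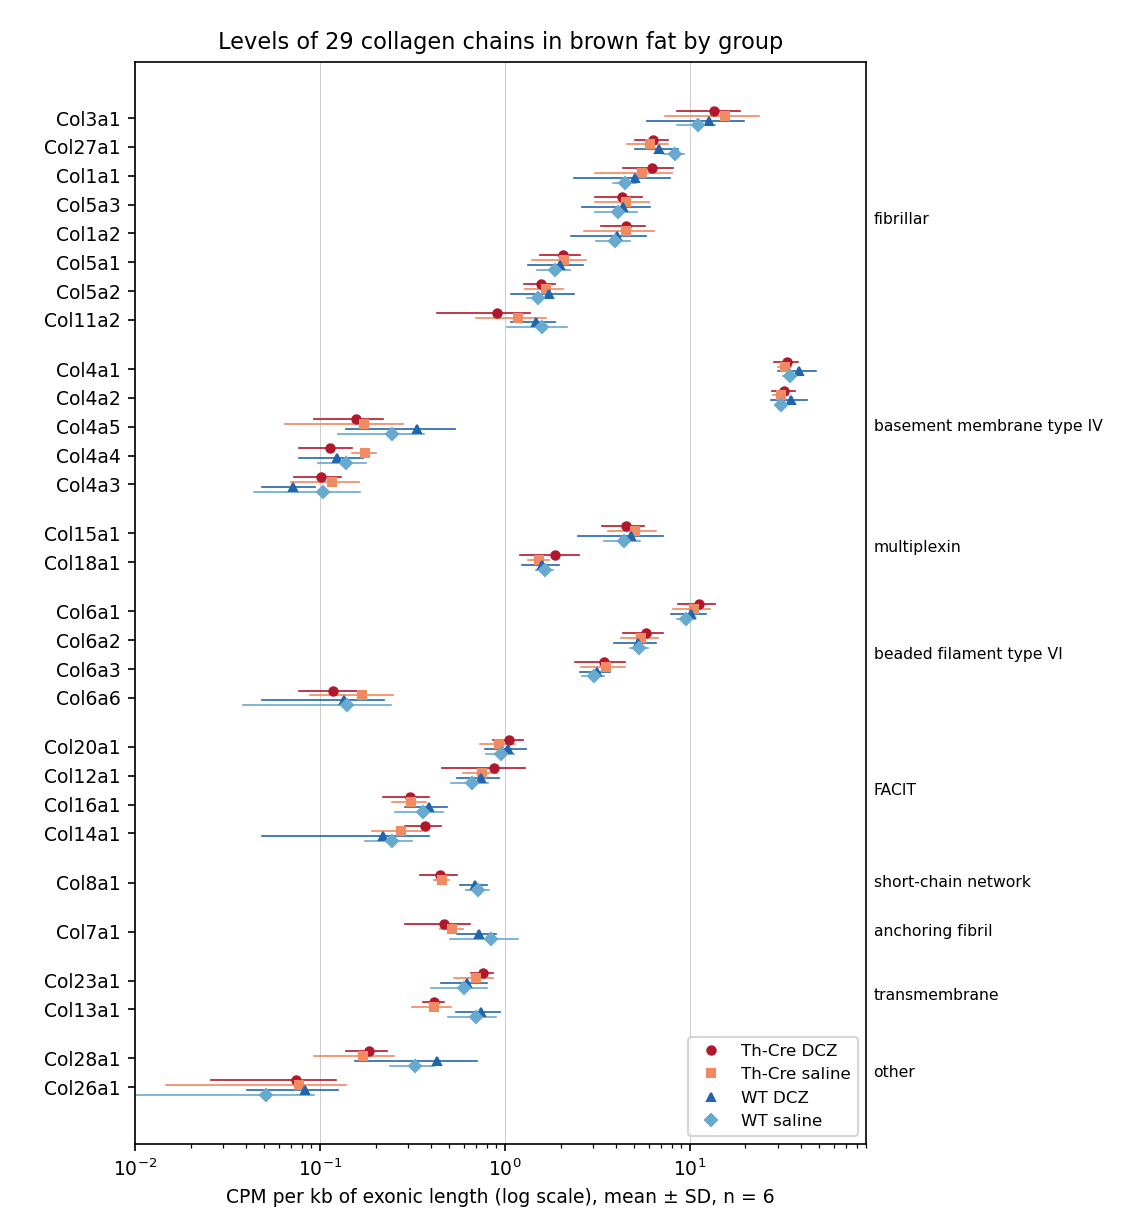
Levels of the 29 tested collagen chains, as CPM per kilobase of exonic sequence on a log axis, with a row for each gene and a mark for each group, with means and SD bars over 6 libraries per group. Col4a1 and Col4a2 lie farthest to the right in all 4 groups, and the SD bar of Col26a1 in WT saline runs past the left edge.

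Ratios of chains that join in the same protein or fibril varied between libraries to a degree that differed by pair. The ratio of Col4a2 to Col4a1 per kb was 0.929 ± 0.0480 over 24 libraries (SD), a coefficient of variation of 5.17%. By group it was 0.968 ± 0.0516 in Th-Cre DCZ, 0.949 ± 0.0407 in Th-Cre saline, 0.905 ± 0.0284 in WT DCZ and 0.893 ± 0.0293 in WT saline (SD, n = 6 each). Type I collagen is built with more Col1a1 than Col1a2 protein, and the ratio of Col1a2 to Col1a1 RNA was 0.819 ± 0.0963. That ratio depended on the length used and was 1.72 with the longest transcript of each gene, so no order between these chains can be given. The ratio of Col6a2 to Col6a1 was 0.528 ± 0.0413, and that of Col6a3 to Col6a1 was 0.317 ± 0.0349. Col3a1 exceeded Col1a1 by 2.47 ± 0.381 times, and the ratio of Col5a2 to Col5a1 was 0.825 ± 0.112 (all SD, n = 24). With the longest transcripts the ratio of Col6a2 to Col6a1 was 0.839 and that of Col3a1 to Col1a1 was 3.95. That of Col5a2 to Col5a1 was then 1.18, so no order between the type V chains can be given either.

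DCZ against saline was the comparison the chemogenetic design was built for, and 0 of the 29 collagen chains tested passed an adjusted p of 0.05 in Th-Cre mice. Of all 13129 genes tested with edgeR's quasi-likelihood test and Benjamini-Hochberg adjustment, 0.0229% were called, that is 3 genes. At an unadjusted p under 0.05 the collagen count was 1 of 29, against 745 genes or 5.67% of all genes, and DESeq2 and limma-voom also called 0 collagen chains. The collagen sum was 780 to 1295 CPM with a median of 1088 in Th-Cre DCZ, and 783 to 1334 CPM with a median of 1040 in Th-Cre saline. The groups overlapped over nearly their whole ranges. The median log2 fold change of the 29 chains was 0.01, with 15 positive. These are bulk samples, in which fewer cells of a type and less RNA per cell cannot be told apart.

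The fibrillar chains of types I and III kept overlapping ranges in Th-Cre fat. Col3a1 had 75.1, 125 and 213 CPM as its lowest, median and highest value in Th-Cre DCZ, against 62.7, 140 and 252 CPM in Th-Cre saline, a log2 fold change of −0.10 with a 95% interval of −0.70 to 0.50. Col1a1 had 21.3, 40.7 and 57.6 CPM in Th-Cre DCZ and 20.4, 32.1 and 59.1 CPM in Th-Cre saline, a log2 fold change of 0.22 (−0.29 to 0.74). Both intervals are wide enough to hold a moderate change either way. Col1a2 had 38.7, 54.6 and 80.2 CPM in Th-Cre DCZ, against 30.8, 52.5 and 84.9 CPM in Th-Cre saline, a log2 fold change of 0.06 (−0.39 to 0.50). Type I is the main collagen of most fibrils, and the ranges of both its chains overlapped between the Th-Cre groups.

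The basement membrane chains were measured more tightly. Col4a1 had 188, 257 and 290 CPM in Th-Cre DCZ, against 215, 247 and 264 CPM in Th-Cre saline, a log2 fold change of 0.03 with an interval of −0.20 to 0.27. Col4a2 had 165, 227 and 244 CPM in Th-Cre DCZ, against 181, 212 and 223 CPM in Th-Cre saline, a log2 fold change of 0.06 (−0.17 to 0.29). Col6a3, of the type VI filaments, had 23.9, 44.4 and 57.1 CPM in Th-Cre DCZ, against 28.2, 44.0 and 53.4 CPM in Th-Cre saline, at −0.04 (−0.42 to 0.33) on the log2 scale. For these 3 genes the saline range lay inside the DCZ range. Col15a1 had 17.1, 29.1 and 38.5 CPM in Th-Cre DCZ, against 20.3, 29.9 and 43.9 CPM in Th-Cre saline, at −0.16 (−0.62 to 0.31).

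Of the scarcer chains, Col4a4 had the smallest p in Th-Cre mice. It had 0.680, 1.31 and 1.65 CPM in Th-Cre DCZ, against 1.43, 1.91 and 2.20 CPM in Th-Cre saline, a log2 fold change of −0.65 with an SE of 0.22 and an adjusted p of 0.588 (edgeR). The groups overlapped between 1.43 and 1.65 CPM, and the unadjusted p of 0.00629 did not survive adjustment over all genes. Col11a2, a minor chain of cartilage-type fibrils, was at −0.39 (adjusted p = 0.905), Col18a1 at 0.27 (adjusted p = 0.942) and Col14a1, a fibril-associated chain, at 0.39 (adjusted p = 0.9699) on the log2 scale.

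In WT mice DCZ was also followed by 0 calls among the 29 chains, against 0.00762% of all genes, which is 1 gene. No collagen chain had an unadjusted p under 0.05, against 1137 genes or 8.66% of all genes, and DESeq2 and limma-voom called 0 chains. The median log2 fold change was 0.09, with 19 of 29 positive. The library of WT DCZ mouse 3 was the highest of its group for Col1a1, Col1a2, Col3a1, Col15a1, Col4a1 and Col4a2. It also had the highest macrophage marker sum of all 24 libraries, 92.5 CPM, whose part in these values was not tested.

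Col3a1 had 84.5, 103 and 263 CPM in WT DCZ, against 89.5, 97.1 and 152 CPM in WT saline, a log2 fold change of 0.20 (−0.40 to 0.79). Without the library of WT DCZ mouse 3 the log2 fold change of Col3a1 was −0.08. Col1a1 had 20.5, 27.8 and 69.2 CPM in WT DCZ, against 24.3, 28.6 and 35.8 CPM in WT saline, a log2 fold change of 0.17 (−0.34 to 0.69), and −0.11 without mouse 3. Col4a1 had 228, 282 and 420 CPM in WT DCZ, against 235, 264 and 282 CPM in WT saline, a log2 fold change of 0.16 (−0.07 to 0.40). Col4a2 had 192, 220 and 330 CPM in WT DCZ, against 188, 207 and 225 CPM in WT saline, at 0.18 (−0.05 to 0.41). Without mouse 3 these were 0.03 for Col4a1 and 0.05 for Col4a2.

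Col27a1, by contrast, had 56.1, 90.5 and 127 CPM in WT DCZ and 90.2, 108 and 131 CPM in WT saline, a log2 fold change of −0.28 with an adjusted p of 0.628 (edgeR). Col4a3 was at −0.49 with an adjusted p of 0.609. Col1a2 was at 0.03, Col6a3 at 0.04 and Col15a1 at 0.13 on the log2 scale. Without mouse 3 these 3 chains were at −0.19, −0.05 and −0.15.

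Whether the response to DCZ differed between genotypes was tested as an interaction, which shares all its libraries with the comparisons above. It called 0 of 29 chains, against 0.00762% of all genes, and DESeq2 and limma-voom called 0 as well. At an unadjusted p under 0.05 it held 0 chains, against 980 genes or 7.46% of all genes. The median over the chains was −0.09, with 13 of 29 positive. Col14a1 was at 0.65 (adjusted p = 0.730), Col4a4 at −0.47 (adjusted p = 0.738), Col27a1 at 0.35 (adjusted p = 0.755) and Col18a1 at 0.32 (adjusted p = 0.775). For Col4a1 the difference in response was −0.13 with a 95% interval of −0.46 to 0.20, and for Col4a2 it was −0.12. It was −0.30 for Col3a1, 0.05 for Col1a1, 0.02 for Col1a2, −0.09 for Col6a3 and −0.28 for Col15a1. Of the genes that act on collagen, none was called in any of the 3 tests: this covers the enzymes and chaperones that modify and fold chains (19 tested), those that cleave and cross-link them (10), those that break collagen down (13), collagen receptors (7), other basement membrane proteins (14), other fibrous matrix proteins (16) and TGF-beta signalling (12). At an unadjusted p under 0.05 each list held at most 2 genes in each test, save TGF-beta signalling with 4 in Th-Cre and 3 in the interaction (edgeR).

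**Figure D2:**
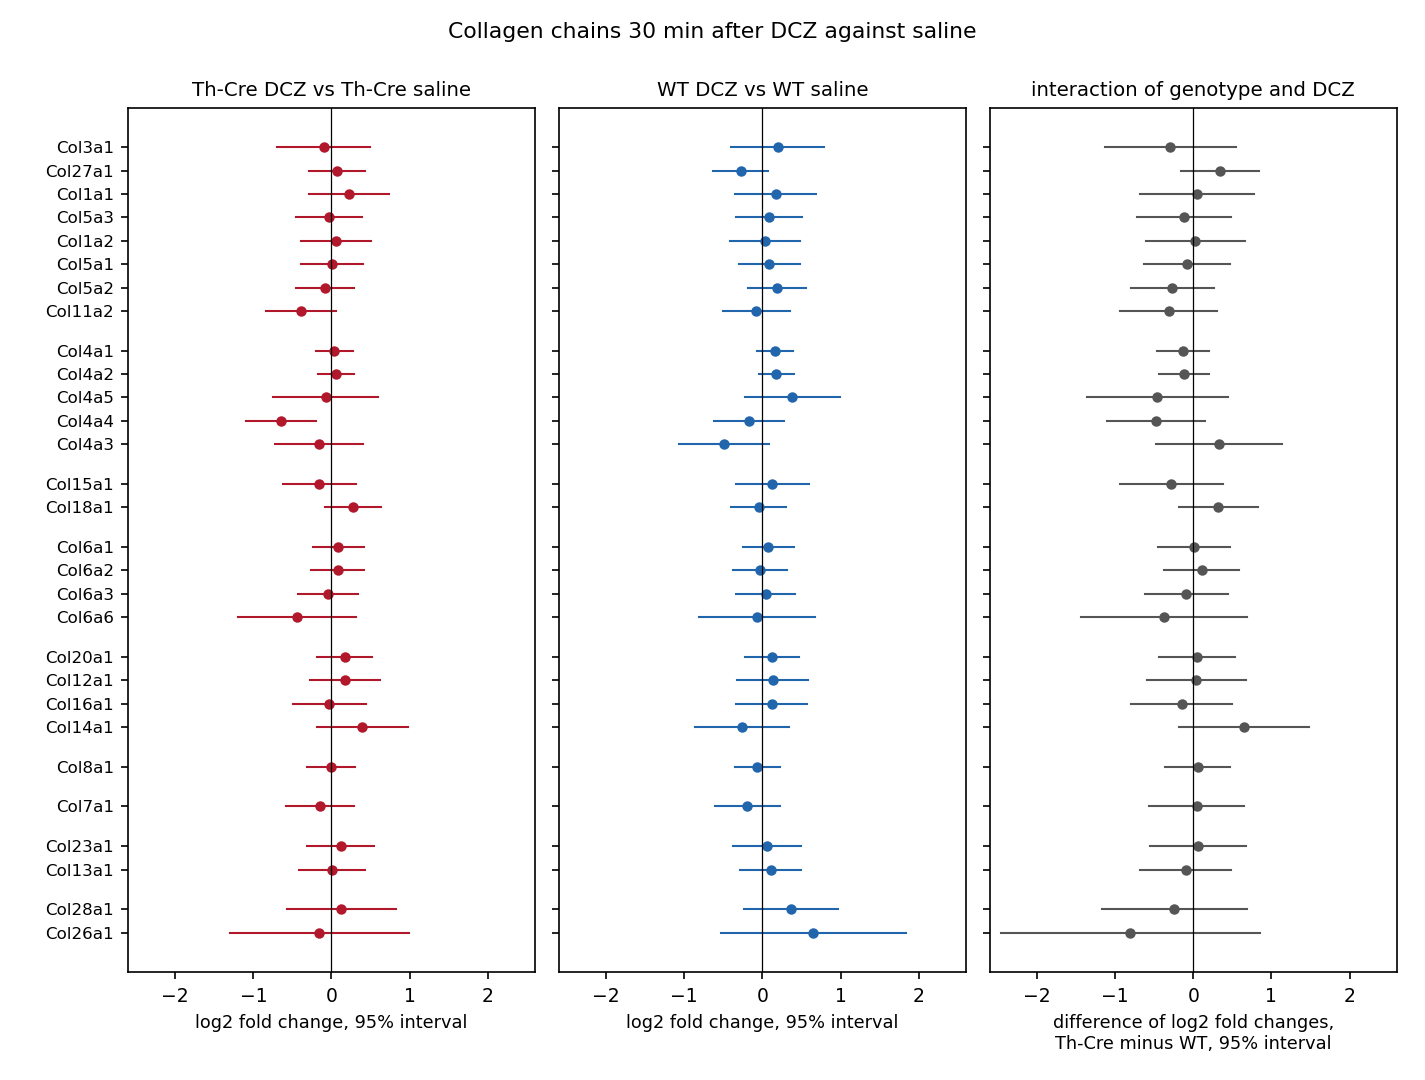
Log2 fold change of the 29 tested collagen chains for DCZ against saline in Th-Cre mice and in WT mice, and the difference between these, as points with 95% intervals from edgeR, grouped by class. The interval of Col4a4 in Th-Cre lies below 0 and the others include 0, and no chain passed an adjusted p of 0.05.

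Between genotypes some collagen chains did differ, and every chain that passed in edgeR was lower in Th-Cre. Under saline 4 of 29 chains fell, Col8a1, Col13a1, Col7a1 and Col28a1, and 0 rose, against 24.9% of all genes called (12.4% lower and 12.5% higher). Under DCZ 6 of 29 fell, the same 4 and Col11a2 and Col4a5, and 0 rose, against 13.8% of all genes (7.02% lower and 6.75% higher). DESeq2 called 5 chains under saline and 7 under DCZ, and limma-voom 5 and 6, with Col27a1 added under saline and Col14a1 called higher under DCZ by both, and with Col7a1 not called under DCZ by limma-voom. Among males alone 4 chains passed under DCZ, with Col28a1, Col4a5 and Col8a1 lower and Col14a1 higher. These genotype comparisons share no library, but both come from the same fit, with the same estimate of spread per gene and the same term for sex. Their calls are therefore not fully independent. The 4 calls under saline were all among the 6 under DCZ, a share of 100% of the one list and 66.7% of the other, where over all genes the shares were 32.9% and 59.6%. The sign was the same in 22 of 29 chains (75.9%), near the 75.6% of all genes. The median log2 fold change was 0.13 under saline and −0.07 under DCZ, with medians of −0.01 and 0.00 over all genes. The share called among collagen chains was below the background under saline and above it under DCZ. None of the 6 is an abundant chain, and each had at most 235 counts in a library, from as few as 1 for Col4a5.

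Col8a1 encodes a short-chain collagen that forms networks in vessel walls and the cornea, and lies at chr16:57624258-57754737. Under saline it had 3.16, 3.65 and 3.95 CPM as its lowest, median and highest value in Th-Cre, against 4.38, 5.56 and 6.69 CPM in WT. The groups did not overlap, and Col8a1 fell to 0.634 of the WT level (log2 fold change −0.66, SE 0.14, adjusted p = 0.00329, edgeR). Under DCZ it had 2.58, 3.27 and 4.74 CPM in Th-Cre, against 3.84, 5.496 and 6.44 CPM in WT. There 4 of 6 Th-Cre libraries lay below every WT library, and the level was 0.659 of WT (log2 fold change −0.60, SE 0.14, adjusted p = 0.00974). Mean levels were 3.51 ± 0.803 in Th-Cre DCZ, 3.57 ± 0.346 in Th-Cre saline, 5.39 ± 0.915 in WT DCZ and 5.61 ± 0.811 CPM in WT saline (SD, n = 6 each).

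Col13a1 encodes a transmembrane collagen of cell adhesion sites, including the neuromuscular junction, and lies at chr10:61838236-61979108. It had 1.36, 1.78 and 2.71 CPM in Th-Cre saline, against 2.28, 2.94 and 4.98 CPM in WT saline. Of the 6 Th-Cre libraries, 5 lay below every WT library, and the level was 0.597 of WT (log2 fold change −0.74, SE 0.20, adjusted p = 0.0103, edgeR). Under DCZ it had 1.56, 1.95 and 2.28 CPM in Th-Cre and 2.76, 3.08 and 5.16 CPM in WT. These groups did not overlap, and the level was 0.558 of WT (log2 fold change −0.84, SE 0.20, adjusted p = 0.00921).

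Col7a1 encodes the anchoring fibril that ties epithelial basement membranes to the tissue beneath, and lies at chr9:108953586-108984875. It had 4.52, 5.27 and 6.42 CPM in Th-Cre saline, against 5.16, 8.00 and 15.1 CPM in WT saline, and 2.92, 4.34 and 7.16 CPM in Th-Cre DCZ, against 4.62, 7.95 and 9.21 CPM in WT DCZ. The groups overlapped under both treatments, with 2 of 6 Th-Cre libraries below every WT library under saline and 3 of 6 under DCZ. It fell under saline (log2 fold change −0.68, SE 0.21, adjusted p = 0.0200) and under DCZ (−0.63, SE 0.21, adjusted p = 0.0432, edgeR). Col28a1, a collagen with von Willebrand factor domains known from peripheral nerve, lies at chr6:7997808-8192617. It had 0.324, 0.835 and 1.32 CPM in Th-Cre saline, against 0.960, 1.59 and 2.13 CPM in WT saline, and 0.585, 0.875 and 1.28 CPM in Th-Cre DCZ, against 0.782, 1.89 and 4.33 CPM in WT DCZ. Its log2 fold change was −0.94 under saline (SE 0.32, adjusted p = 0.0358) and −1.18 under DCZ (SE 0.31, adjusted p = 0.0157, edgeR), and the groups overlapped in both. Some of these calls lost the threshold when 1 library was left out. That of Col7a1 under saline was lost without WT saline mouse 7 or 8 (adjusted p up to 0.0770), with log2 fold changes of −0.77 to −0.50 over all 24 fits. Under DCZ it was lost in 11 of 24 fits (up to 0.129, without WT DCZ mouse 5), at −0.74 to −0.50. That of Col28a1 under saline was lost without any of WT saline mice 7, 8, 9 and 12 or Th-Cre saline mice DN2087, DN2094, DN2099 and DN2201 (up to 0.0909), and its log2 fold change stayed between −1.12 and −0.79. The calls of Col8a1 and Col13a1 in both comparisons and of Col28a1 under DCZ held in all 24 such fits.

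In the edgeR fit of all 24 libraries 2 chains passed under DCZ alone. These were Col11a2, a fibrillar chain at chr17:34039437-34066685, and Col4a5, the X-linked type IV chain of kidney basement membranes at chrX:141475385-141689234. In fits of only the 2 groups compared, Col11a2 passed as lower under saline and did not pass under DCZ. Col7a1 also lost its DCZ call in such a fit, while Col4a5 still passed under DCZ alone. Col11a2 had 2.15, 5.65 and 11.03 CPM in Th-Cre DCZ, against 5.01, 10.8 and 13.1 CPM in WT DCZ (log2 fold change −0.78, SE 0.22, adjusted p = 0.0198, edgeR). Under saline it had 4.69, 7.90 and 12.4 CPM in Th-Cre, against 6.64, 11.6 and 17.2 CPM in WT (−0.46, adjusted p = 0.109). The groups overlapped in both treatments, with 2 of 6 Th-Cre libraries below every WT library under DCZ and 3 of 6 under saline. Col4a5 had 0.476, 1.06 and 1.65 CPM in Th-Cre DCZ, against 0.997, 1.99 and 4.16 CPM in WT DCZ (log2 fold change −0.97, SE 0.31, adjusted p = 0.0367). Under saline it had 0.0891, 1.13 and 2.27 CPM in Th-Cre and 0.744, 1.51 and 3.04 CPM in WT (−0.51, adjusted p = 0.231). Neither chain was called in the interaction, which tests whether the genotype difference itself depended on DCZ (−0.32 for Col11a2 and −0.46 for Col4a5, both at an adjusted p of 0.814). The DCZ call of Col11a2 was lost without Th-Cre DCZ mouse DN2072 or DN2075 or WT DCZ mouse 5 (adjusted p up to 0.0682), with log2 fold changes of −0.92 to −0.64 over all 24 fits. That of Col4a5 was lost without any of 4 Th-Cre DCZ libraries (DN2072, DN2075, DN2091 and DN2097) or WT DCZ mice 1, 3, 4 and 5 (up to 0.0953), at −1.20 to −0.84.

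Col1a1, Col1a2, Col3a1, Col4a1, Col4a2, Col6a3 and Col15a1 did not pass in either genotype comparison in edgeR. Col3a1 was at 0.43 under saline (adjusted p = 0.277) and at 0.14 under DCZ, and Col1a1 at 0.26 (adjusted p = 0.482) and 0.31 (adjusted p = 0.427, edgeR). Col4a1 was at −0.09 under saline, with an interval of −0.33 to 0.14, and at −0.22 under DCZ (−0.46 to 0.01). Col4a2 was at 0.00 under saline (−0.23 to 0.23) and at −0.12 under DCZ (−0.35 to 0.11). Col6a3 was at 0.22 under saline (adjusted p = 0.409) and at 0.13 under DCZ. Col1a2 was at 0.16 under saline and at 0.19 under DCZ, and Col15a1 at 0.20 under saline and at −0.09 under DCZ. Just outside the threshold lay Col27a1 under saline (−0.45, adjusted p = 0.0545) and Col14a1 under DCZ (0.83, adjusted p = 0.0518), which had 1.70, 2.66 and 3.24 CPM in Th-Cre DCZ and 0.457, 1.18 and 3.73 CPM in WT DCZ. Col27a1 under saline passed, as lower in Th-Cre, with DESeq2, limma-voom, upper-quartile factors, a stricter filter and a fit of the groups compared alone. Col14a1 under DCZ passed, as higher in Th-Cre, with DESeq2, limma-voom, the stricter filter and males alone.

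**Figure D3:**
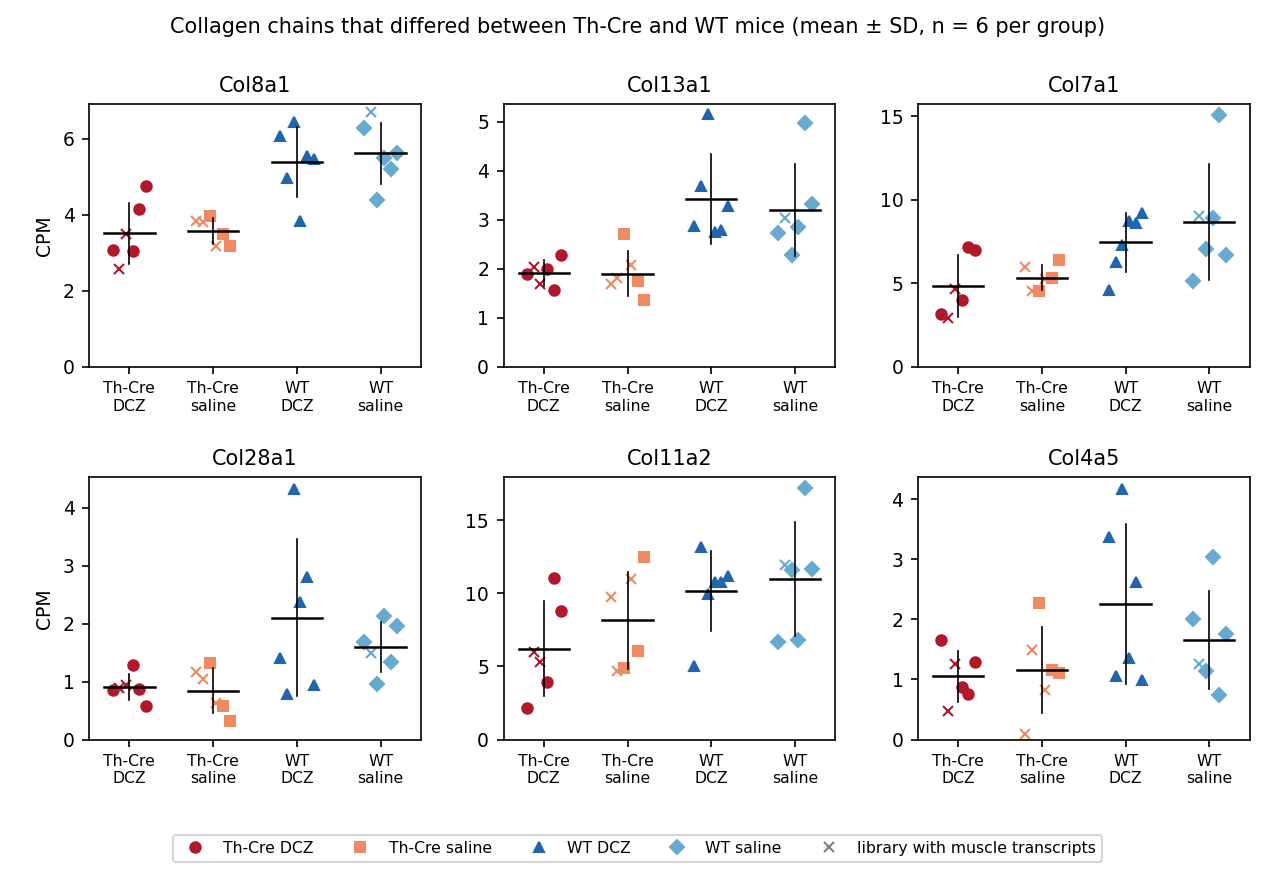
CPM in each library of the 6 chains called lower in Th-Cre in at least 1 genotype comparison, by group, with means and SD bars (n = 6 each) and crosses for the 6 libraries with muscle transcripts. Th-Cre libraries lie below all WT libraries for Col8a1 under saline and for Col13a1 under DCZ, and overlap with WT for Col7a1, Col28a1, Col11a2 and Col4a5.

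Markers of vessel cells were also called in the same comparisons. Over all genes, 24.9% were called under saline (12.4% lower and 12.5% higher). Under DCZ 13.8% were called (7.02% lower and 6.75% higher), so 2 of 10 or 4 of 12 markers should be read beside these shares. Of 10 endothelial markers, 8 fell under saline and 2 under DCZ, and their summed level was 746 to 883 CPM in Th-Cre saline, against 770 to 1410 CPM in WT saline, and 726 to 882 CPM in Th-Cre DCZ, against 807 to 1150 CPM in WT DCZ. Of 10 markers of smooth muscle and pericytes, 7 fell under saline and 4 under DCZ, with sums of 558 to 576 CPM in Th-Cre saline, 569 to 776 CPM in WT saline, 559 to 622 CPM in Th-Cre DCZ and 587 to 717 CPM in WT DCZ. Of 11 fibroblast and preadipocyte markers tested, 0 passed in either comparison, and their sums overlapped, at 521 to 1051 CPM in Th-Cre saline, 630 to 787 CPM in WT saline, 445 to 874 CPM in Th-Cre DCZ and 544 to 967 CPM in WT DCZ. Of 7 Schwann cell markers tested, 1 fell under saline and 0 under DCZ. The 12 brown adipocyte markers gave 1 higher and 3 lower under saline and 0 higher and 3 lower under DCZ. The part of these cell types in the collagen differences was not tested. Muscle marker sums were 3.30 to 1527 CPM in Th-Cre saline, 4.002 to 299 CPM in WT saline, 3.59 to 634 CPM in Th-Cre DCZ and 4.74 to 45.6 CPM in WT DCZ. Without the 6 muscle libraries, which left 4 Th-Cre DCZ, 3 Th-Cre saline, 6 WT DCZ and 5 WT saline libraries, 0 chains passed in either comparison, and the number of genes called fell to 109 under saline, against 3270 with all libraries, and to 535 under DCZ, against 1808. The log2 fold changes then were −0.61 for Col8a1 (adjusted p = 0.0713), −0.74 for Col13a1 (adjusted p = 0.128), −0.59 for Col7a1 (adjusted p = 0.1704) and −1.22 for Col28a1 (adjusted p = 0.106) under saline. Under DCZ they were −0.82 for Col13a1 (adjusted p = 0.0677), −0.50 for Col8a1 (adjusted p = 0.0864), −1.18 for Col28a1 (adjusted p = 0.0719), −0.78 for Col11a2 (adjusted p = 0.0944), −0.82 for Col4a5 (adjusted p = 0.124) and −0.53 for Col7a1 (adjusted p = 0.176).

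Genes that act on collagen were also called between genotypes, in shares on both sides of those of all genes. Among 19 genes for modification and folding, 1 rose and 3 fell in Th-Cre mice under saline, and 1 rose and 2 fell under DCZ. These are 21.1% and 15.8% of the list, beside 24.9% and 13.8% of all genes. Ppib, the prolyl isomerase of the endoplasmic reticulum, fell in both, by 0.36 on the log2 scale under saline (adjusted p = 0.00109) and by 0.28 under DCZ (adjusted p = 0.00628, edgeR). Fkbp10, a collagen chaperone, fell by 0.48 under saline, and P3h3, a prolyl hydroxylase family member, fell by 0.47 under DCZ. Of 14 other basement membrane proteins, 1 rose and 5 fell under saline (42.9%), among them the laminin chain Lama5 (−0.72, adjusted p = 0.00153) and the proteoglycan Hspg2 (−0.33), and Lamb1 rose (0.29). Of 16 other fibrous matrix proteins, 0 rose and 5 fell under saline (31.2%), including Tnxb (−0.39), Postn (−0.42), Fbln5 (−0.57) and Eln, the elastin gene (−0.48), while under DCZ 1 passed (6.25%), Thbs1 (1.30).

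Of 10 genes for cleavage and cross-linking, 0 passed under saline and Loxl1, a lysyl oxidase of elastic fibres, fell under DCZ (−1.02, SE 0.24, adjusted p = 0.00916), so that 0 and 1 of the 10 were called, beside 24.9% and 13.8% of all genes. Among 13 genes for breakdown, the collagen uptake receptor Mrc2 fell under saline (−0.34), and the gelatinase Mmp9 rose under DCZ (1.22), 7.69% of the list in each. Of 7 collagen receptors, Ddr2 fell under saline (−0.26), which is 14.3%, and 0 passed under DCZ. In TGF-beta signalling, with 12 genes tested, the inhibitor Smad7 fell in both comparisons (−0.86 under saline and −0.80 under DCZ), as did the latent TGF-beta binding protein Ltbp3 (−0.23 and −0.46), and the receptor Tgfbr2 rose in both (0.42 and 0.48). The share called was 25.0% under saline and 33.3% under DCZ. The median of the TGF-beta list was −0.22 under saline and 0.08 under DCZ.

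Sex was fitted as a term over all 24 libraries, with 12 from females and 12 from males. Of the 29 chains, 2 rose in females and 2 fell, against 8.07% of all genes called (4.11% higher and 3.95% lower). At an unadjusted p under 0.05 the count was 14 of 29, against 22.7% of all genes. Only 6 of 29 chains had a positive log2 fold change, and the median was −0.11, beside 0.00 for all genes. The sum of the fibrillar chains was 336 ± 60.9 CPM in females and 422 ± 121 CPM in males (SD, n = 12 each).

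Col11a2 rose in females. It had 5.98, 11.1 and 17.2 CPM as lowest, median and highest value in females, against 2.15, 5.70 and 11.6 CPM in males. The ranges overlapped, with 4 of 12 females above every male and 11 of 12 above the male mean, and the difference was 1.78-fold (log2 0.83, SE 0.15, adjusted p = 0.00132, edgeR). Col14a1, which lies at chr15:55307750-55520803, also rose, with 1.34, 2.26 and 3.73 CPM in females against 0.457, 1.48 and 2.72 CPM in males. Again 4 females lay above every male, and the difference was 1.59-fold (log2 0.67, SE 0.20, adjusted p = 0.0442). The call of Col14a1 was lost in 15 of the 24 fits that left out 1 library, with an adjusted p of up to 0.0720 (without WT DCZ mouse 5), and the log2 fold change stayed between 0.52 and 0.78 in all 24.

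Col4a5 fell in females, with 0.0891, 1.03 and 1.35 CPM in females against 0.879, 1.88 and 4.16 CPM in males. All 12 females lay below the male mean and 5 below every male, and the level was 0.456 of that in males (log2 −1.13, SE 0.22, adjusted p = 0.00220, edgeR). Col6a6, a type VI chain at chr9:105687809-105828160, fell too, with 0.149, 0.708 and 1.52 CPM in females against 0.958, 1.39 and 2.77 CPM in males. Here 8 of 12 females lay below every male, and the level was 0.499 of that in males (log2 −1.004, SE 0.26, adjusted p = 0.0181). Col4a3 and Col4a4, which assemble with Col4a5, had log2 fold changes of −0.62 (adjusted p = 0.0513) and −0.48 (adjusted p = 0.0524) and did not pass. Col4a3 had 0.595, 0.721 and 0.995 CPM in females against 0.507, 1.17 and 2.16 CPM in males. Col4a4 had 0.645, 1.24 and 1.94 CPM in females against 1.07, 1.70 and 2.20 CPM in males, with 4 females below every male.

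The abundant fibrillar chains had lower medians in females and did not pass in edgeR with all libraries. Col3a1 had 62.7, 102 and 162 CPM in females against 75.1, 131 and 263 CPM in males (log2 −0.50, adjusted p = 0.135, edgeR), and the value without the library of WT DCZ mouse 3, a male, was −0.36. Col1a2 had 30.8, 43.0 and 66.6 CPM in females against 36.6, 55.9 and 94.3 CPM in males (−0.44, adjusted p = 0.0781). Col1a1 had 20.4, 28.8 and 43.2 CPM in females against 20.5, 34.4 and 69.2 CPM in males (−0.44, adjusted p = 0.132). With 1 library left out, Col1a1 passed in 1 of 24 fits (adjusted p down to 0.0389) and Col1a2 in 2 (down to 0.0331). DESeq2 called 9 chains, the 4 above and Col12a1, Col28a1, Col4a3, Col4a4 and Col5a3. The gap in fibrillar sums was widest in Th-Cre saline, at 283 ± 86.4 CPM in females and 512 ± 114 CPM in males (SD, n = 3 each). Females against males were at 331 ± 12.7 and 400 ± 64.0 CPM in WT saline, and at 346 ± 33.6 and 398 ± 179 CPM in WT DCZ. In Th-Cre DCZ females were not lower, at 385 ± 60.6 CPM against 377 ± 121 CPM in males. This difference between groups was not tested. Col4a1 was at −0.08, Col4a2 at −0.03, Col6a3 at 0.04 and Col15a1 at −0.27 between females and males.

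**Figure D4:**
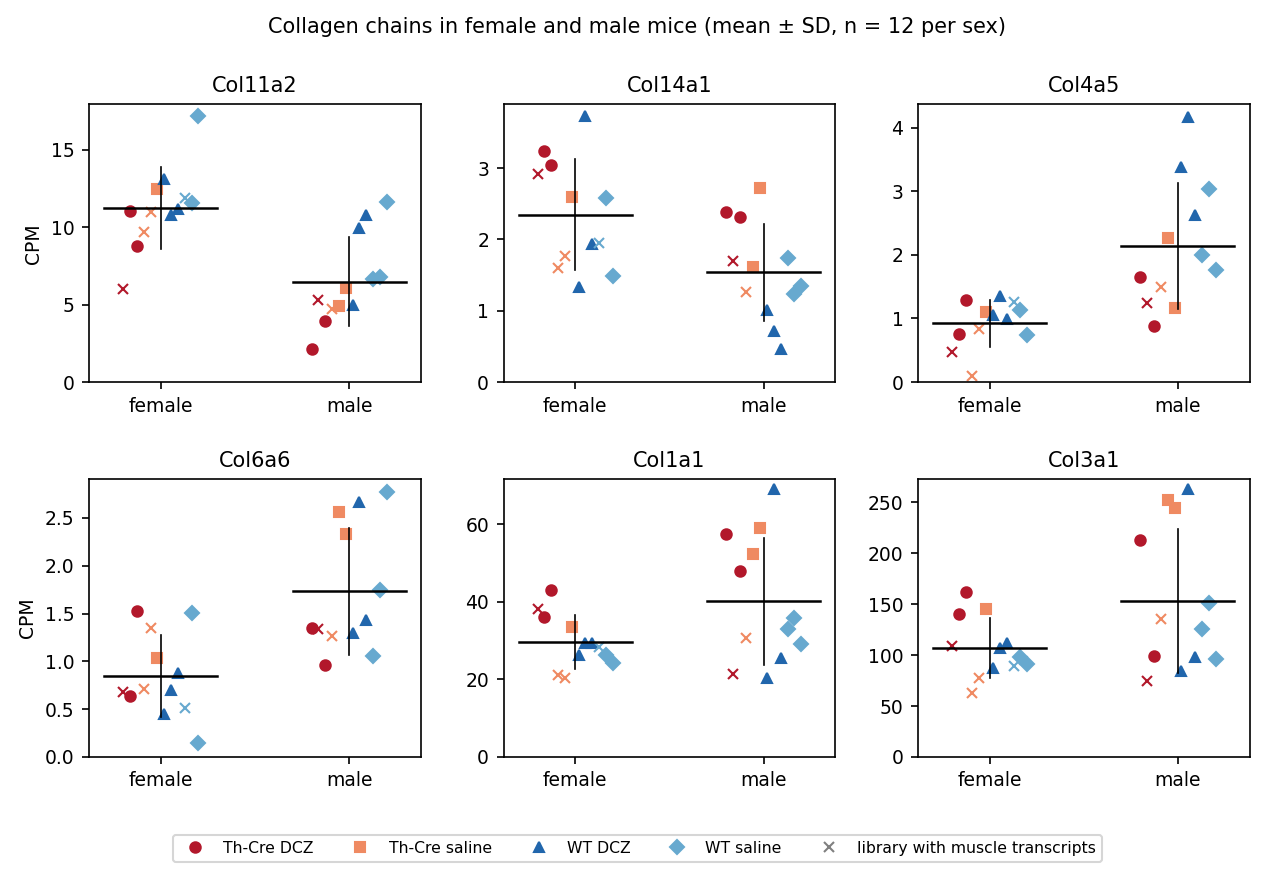
CPM in each library of the 4 chains called between females and males and of Col1a1 and Col3a1, by sex, with means and SD bars (n = 12 each), colours for the groups and crosses for the 6 libraries with muscle transcripts. Col11a2 and Col14a1 lie higher in females and Col4a5 and Col6a6 lower, with some overlap in each.

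Muscle transcripts moved with sex. The 13 muscle markers summed to 6.86 to 1527 CPM in females with a median of 32.3, and to 3.30 to 94.3 CPM in males with a median of 6.29, and 9 of the 13 rose in females. Without the 6 muscle libraries Col11a2 was at 0.91 (adjusted p = 0.00762) and Col4a5 at −1.09 (adjusted p = 0.00818), both still called, while Col6a6 at −0.99 (adjusted p = 0.0748) and Col14a1 at 0.80 (adjusted p = 0.0557) were not (edgeR), and Col12a1, a fibril-associated chain, was called higher in addition. Among genes that act on collagen, 3 of 19 for modification and folding rose in females and 2 fell, 26.3% of the list beside 8.07% of all genes. The lysyl hydroxylase Plod2 rose (0.79, adjusted p = 0.00390), as did the prolyl hydroxylase subunits P4ha1 (0.57) and P4ha2 (0.42), and P3h4 fell (−0.27). Loxl1 (0.81) and Adamts2, the procollagen peptidase (0.37), rose among 10 genes for cleavage and cross-linking (20.0%), and so did Mmp9 (0.78) and Pepd (0.38), the peptidase that frees proline, among 13 for breakdown (15.4%). Of 14 other basement membrane proteins, Lamb3 rose (0.59) and 4 fell (35.7% called), among them Lama2 (−0.45). Dcn, the fibril-binding proteoglycan decorin, was the 1 of 16 fibrous matrix genes that fell (−0.58, adjusted p = 0.000190), 6.25% of that list. In TGF-beta signalling 0 of 12 genes rose and 1 fell (8.33%), and 0 of 7 collagen receptors passed. Of 11 fibroblast and preadipocyte markers tested, 0 rose and 1 fell.

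Chains of the same collagen varied together from library to library once group and sex were taken out. Correlations were taken over the 24 libraries on log2 CPM, after subtraction of the means by group and sex, for 8 pairs of chains, with p-values from permutation (100000 resamples) adjusted over the 8 pairs. Both chains of a pair come from the same library and share its scaling. Col4a1 with Col4a2 gave a Pearson r of 0.97 and a Spearman rho of 0.89 (adjusted permutation p = 0.00016), and r was 0.94 without the 2 libraries farthest from the median of Col4a1. Col1a1 with Col1a2 gave r 0.93 and rho 0.91 (adjusted permutation p = 0.00016), and 0.90 without the 2 farthest. Col6a1 with Col6a2 gave r 0.96 and rho 0.88 (adjusted permutation p = 0.000213), and 0.92 without them. Col6a1 with Col6a3 gave r 0.89 and rho 0.86 (adjusted permutation p = 0.000352), and 0.83 without them. Col5a1 with Col5a2 gave r 0.85 and rho 0.79 (adjusted permutation p = 0.00229), and 0.85 without them.

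For pairs of different collagen types, Col1a1 with Col3a1, which join in mixed fibrils, gave r 0.90 and rho 0.87 (adjusted permutation p = 0.00022), and 0.86 without the 2 farthest libraries. Col4a1 with Col15a1 gave r 0.77 and rho 0.65 (adjusted permutation p = 0.0124). That fell short of the threshold without the 2 farthest libraries, with r 0.59 (adjusted permutation p = 0.111). Without WT DCZ mouse 3 alone r was also 0.59 (adjusted permutation p = 0.0515). Leaving out the farthest libraries also narrows the range of Col4a1, and the part of single libraries in this correlation was not tested. Col1a1 with Col4a1, a fibrillar and a basement membrane chain, gave r 0.80 and rho 0.66 (adjusted permutation p = 0.0132), and r 0.62 without the 2 farthest (adjusted permutation p = 0.119). The library of WT DCZ mouse 3 was among the 2 farthest for every pair.

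**Figure D5:**
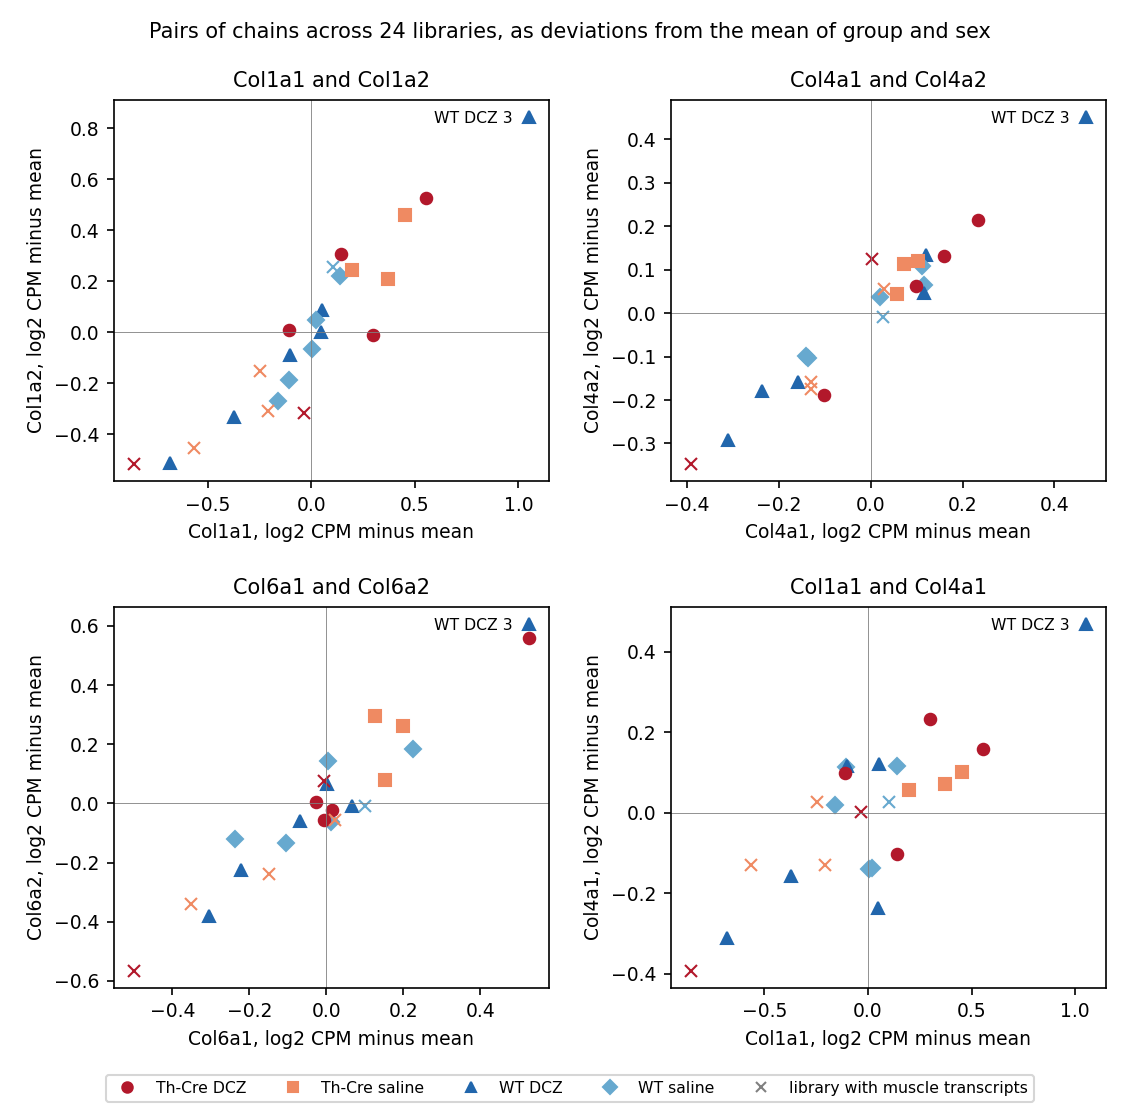
Log2 CPM of 2 chains in each of 24 libraries after subtraction of the means by group and sex, for pairs of collagen chains, with crosses for the 6 libraries with muscle transcripts. Points lie close to a line for Col4a1 with Col4a2 (r = 0.97) and for Col1a1 with Col1a2 (r = 0.93), and scatter more for Col1a1 with Col4a1 (r = 0.80).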

How the data were processed

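Polyadenylated RNA was selected and libraries were made with Illumina TruSeq chemistry, per the labels' protocols. The values used are estimated counts per gene symbol, deposited by the authors as whole numbers for 24 libraries in one table. They were made with kallisto 0.44.0 on GRCm38.p6, per the submitters' processing notes, and neither the transcript set nor the strand setting is given in the sources used here. Overlapping genes may therefore share reads. The authors' normalized tables were not used, since they were scaled within each genotype. Groups and sex came from the sample labels.

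Counts were tested in R 4.3.3 with edgeR 4.0.16 (quasi-likelihood test, TMM scaling, common biological coefficient of variation of 15.6%) over all 24 libraries, with terms for group and sex. The filterByExpr filter kept 13129 genes, with 99.9% of the reads, and p-values were adjusted over all of them by Benjamini-Hochberg, with a threshold of 0.05. SEs were derived from each log2 fold change and its F statistic (size over root F). Exonic lengths and gene positions came from GENCODE M21 and promoters from RefSeq (both GRCm38.p6). In each comparison the text names every chain called, the 4 with the smallest p, and Col1a1, Col1a2, Col3a1, Col4a1, Col4a2, Col6a3 and Col15a1. Alternatives covered scaling, filters, DESeq2 1.42.0, limma-voom (limma 3.58.1), the sex term, libraries left out and gene length. The fits were tested on simulated data. The chains, gene lists and tests were chosen with earlier results of these data known. The list of 6 muscle libraries was known in the same way.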

Additional observations from a re-analysis of the deposited data

Results flagged for a closer look

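In the WT DCZ group 6 values of a single library, that of mouse 3, lay far above the other 5 by Dixon's test for 6 samples. Col1a1 was at 69.2 CPM there, with the next library at 29.4 CPM, and Col1a2 was at 94.3 CPM, with the next at 45.6 CPM. Col3a1 was at 263 CPM, with the next at 112 CPM. Col15a1 was at 59.4 CPM, with the next at 31.0 CPM. The basement membrane chains Col4a1 and Col4a2 were at 420 and 330 CPM, with the next libraries at 293 and 239 CPM. In all 76 sets of group and chain were examined, and chance flags about 1 in 20. The 6 flags come from the same library and are not independent. This library also had fibroblast and preadipocyte markers at 967 CPM and endothelial markers at 1150 CPM, the highest of its group in both.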

How the results depend on the processing

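No paired analysis was possible because no mouse number was shared by the groups compared. The counts of 0 chains called for DCZ in Th-Cre, DCZ in WT and their interaction held under every alternative run. The genotype calls did not. Without the 6 muscle libraries 0 chains passed under saline and 0 under DCZ. Among males alone 1 passed under saline and 4 under DCZ, with 658 and 735 genes called of all. Among females alone 0 and 0 passed, with 6 and 30 genes called of all. With no term for sex, on all 24 libraries, 3 passed under DCZ. Some of these fits used fewer mice, which lowers power, and the cause of the lost calls was not tested. DESeq2 called 9 chains between females and males, against 4 by edgeR. Leaving out 1 library at a time gave 2 to 5 chains for genotype under saline (2 without WT saline mouse 7 or mouse 8), 3 to 7 under DCZ (3 without WT DCZ mouse 5, Th-Cre DCZ mouse DN2072 or mouse DN2075) and 3 to 8 for sex (8 without WT DCZ mouse 1 or Th-Cre DCZ mouse DN2091). With the longest transcript as length the ratios became 1.72 (Col1a2 to Col1a1), 0.845 (Col4a2 to Col4a1), 0.839 (Col6a2 to Col6a1), 3.95 (Col3a1 to Col1a1) and 1.18 (Col5a2 to Col5a1), and the levels 23.4 (Col3a1), 11.8 (Col27a1) and 9.25 (Col6a2) CPM per kb. The correlation of Col4a1 with Col15a1 was 0.59 without the 2 farthest libraries, 0.68 without the muscle libraries and 0.59 without WT DCZ mouse 3. None of these passed by Pearson r, while Spearman rho passed without mouse 3 (adjusted permutation p = 0.0373). That of Col1a1 with Col4a1 was 0.62 without the 2 farthest and 0.73 without the muscle libraries, neither past the threshold. Without WT DCZ mouse 3 it was 0.66 and passed (adjusted permutation p = 0.0443). The alternatives without the muscle libraries and without mouse 3 were chosen after seeing the data. Signs turned only for chains that did not pass a test. Col4a2 for genotype under saline, at 0.00, was 0.0072 with RLE factors, 0.018 with no filter, 0.0071 with DESeq2, 0.091 without the muscle libraries, 0.020 in males and 0.0034 with only the groups compared. Without the muscle libraries Col1a2 was −0.10 for DCZ in Th-Cre, the interaction was −0.18 for Col1a1 and −0.19 for Col1a2, and Col15a1 was 0.0021 for genotype under DCZ. With no term for sex Col1a2 was −0.0022 for DCZ in Th-Cre, and the interaction −0.011 for Col1a1 and −0.035 for Col1a2. With limma-voom Col1a2 was −0.027 for DCZ in WT. In males DCZ in Th-Cre gave −0.17 (Col1a1), −0.34 (Col1a2) and −0.0035 (Col4a1), the interaction −0.40 (Col1a1) and −0.38 (Col1a2), and genotype under DCZ −0.20 (Col3a1). In females DCZ in Th-Cre gave 0.52 (Col3a1), 0.28 (Col6a3) and 0.17 (Col15a1), DCZ in WT 0.036 (Col27a1), the interaction 0.38 (Col3a1), 0.0091 (Col4a1), 0.21 (Col6a3) and 0.066 (Col15a1), genotype under saline −0.076 (Col1a1), −0.12 (Col1a2) and −0.013 (Col6a3), and genotype under DCZ 0.11 (Col15a1). With 1 library left out at a time the ranges that crossed 0 were, for DCZ in Th-Cre, −0.060 to 0.18 (Col1a2), −0.26 to 0.065 (Col3a1), −0.0095 to 0.11 (Col4a1) and −0.19 to 0.074 (Col6a3). For DCZ in WT they were −0.15 to 0.26 (Col15a1), −0.11 to 0.31 (Col1a1), −0.19 to 0.14 (Col1a2), −0.082 to 0.32 (Col3a1) and −0.052 to 0.11 (Col6a3). For the interaction they were −0.081 to 0.32 (Col1a1), −0.089 to 0.23 (Col1a2), −0.19 to 7.1e-05 (Col4a1), −0.18 to 0.0071 (Col4a2) and −0.24 to 0.031 (Col6a3). For genotype they were −0.029 to 0.039 (Col4a2, saline), −0.21 to 0.18 (Col15a1, DCZ), −0.17 to 0.0066 (Col4a2, DCZ) and −0.010 to 0.25 (Col6a3, DCZ), and for sex −0.059 to 0.035 (Col4a2) and −0.017 to 0.12 (Col6a3). Depth limits the scarce chains: 15 of 44 were too low to test, and Col4a5 had as few as 1 count in a library.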
